A study of Caenorhabditis elegans with 4 samples.

Results

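The 8 genes described here encode regulators of the SKN-1 oxidative stress response and of the p38 MAPK immune pathway of *C. elegans*: *skn-1*, *wdr-23*, *pmk-1*, *sek-1*, *nsy-1*, *tir-1*, *atf-7* and *vhp-1*. They were chosen by name from the 15408 genes of the deposited table, with earlier results of these data known. All 8 have a row and passed the filter on low values. The RNA came from 4 populations of mixed developmental stage of the N2 wild type, grown on OP50 bacteria at 20°C, 2 exposed to cisplatin at 60 µg/ml for 24 h and 2 left untreated as controls. The groups share strain, food and temperature and differ in cisplatin, and each has biological replicates numbered 1 and 2. Embryos, larvae and adults were sequenced together, so that fewer cells of a type and less RNA per cell cannot be told apart. The level of each gene was deposited as FPKM, which scales fragments to exon length and to the mapped total of the library, with confidence bounds for each library.

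SKN-1, the *C. elegans* ortholog of mammalian NRF transcription factors, switches on detoxification and glutathione genes under oxidative and electrophilic stress. WDR-23 holds it back as the substrate adaptor of a CUL-4/DDB-1 ubiquitin ligase that leads to its degradation. In the p38 cascade the adaptor TIR-1 activates the kinase NSY-1, which activates SEK-1, which in turn phosphorylates PMK-1, the p38 kinase. PMK-1 acts on the bZIP factor ATF-7 in the intestinal immune response and on SKN-1 in the response to oxidative stress, and the phosphatase VHP-1 removes its activating phosphates. In this study RNA abundance was measured, and neither protein levels nor phosphorylation were.

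All libraries carried markers of most stages and tissues that a mixed population should hold, and no marker with a row was at 0 in every library. Embryos were covered less well. Of 12 embryo markers 5 had no row (*end-1*, *end-3*, *med-1*, *tbx-37* and *ceh-51*), and *tbx-38* had between 0.09 and 0.80 FPKM. The oocyte markers *oma-2* and *cbd-1* and the intestine marker *opt-2* had no row either. The summed FPKM of 16 moulting genes, which mark larvae, was 206 and 582 with cisplatin and 189 and 663 in the controls, for replicates 1 and 2. The summed level of 17 sperm genes was 760 and 891 FPKM after cisplatin against 1940 and 1680 FPKM in untreated worms. That of 6 yolk genes, which mark the adult intestine, was 17200 and 17000 against 22900 and 20500 FPKM, and all 6 were lower in both pairs of libraries with the same number. The part of these differences in the values below was not tested. Depth was estimated from the deposited bounds. If these are Poisson intervals at 95%, their widths correspond to 6.44 to 6.84 M fragments per library. The median gene had 9.67 and 12.81 FPKM after cisplatin against 6.97 and 13.2 FPKM in untreated worms, so control replicate 1 stood below the other libraries in the middle of the distribution.

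The members differed widely in level, and the transcription factors and *wdr-23* were the most abundant. *atf-7* had the highest mean, 125 FPKM over the 4 libraries, followed by *skn-1* at 76.8 and *wdr-23* at 50.5 FPKM. The ranges of these 3 genes did not overlap with each other or with those of the other members. *vhp-1* had a mean of 24.7, *sek-1* of 20.9, *pmk-1* of 14.7, *tir-1* of 12.3 and *nsy-1* of 11.8 FPKM. Within this lower group each gene overlapped in range with its neighbour in the order, although *vhp-1* stood above *sek-1*, *sek-1* above *pmk-1* and *pmk-1* above *tir-1* in each of the 4 libraries. *tir-1* exceeded *nsy-1* in 3 of 4 libraries, and these neighbours cannot be told apart by level. All 8 members lay above the median gene, from the 51.3rd percentile for *nsy-1* to the 93.1st for *atf-7* among the 15065 genes tested.

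**Figure D1:**
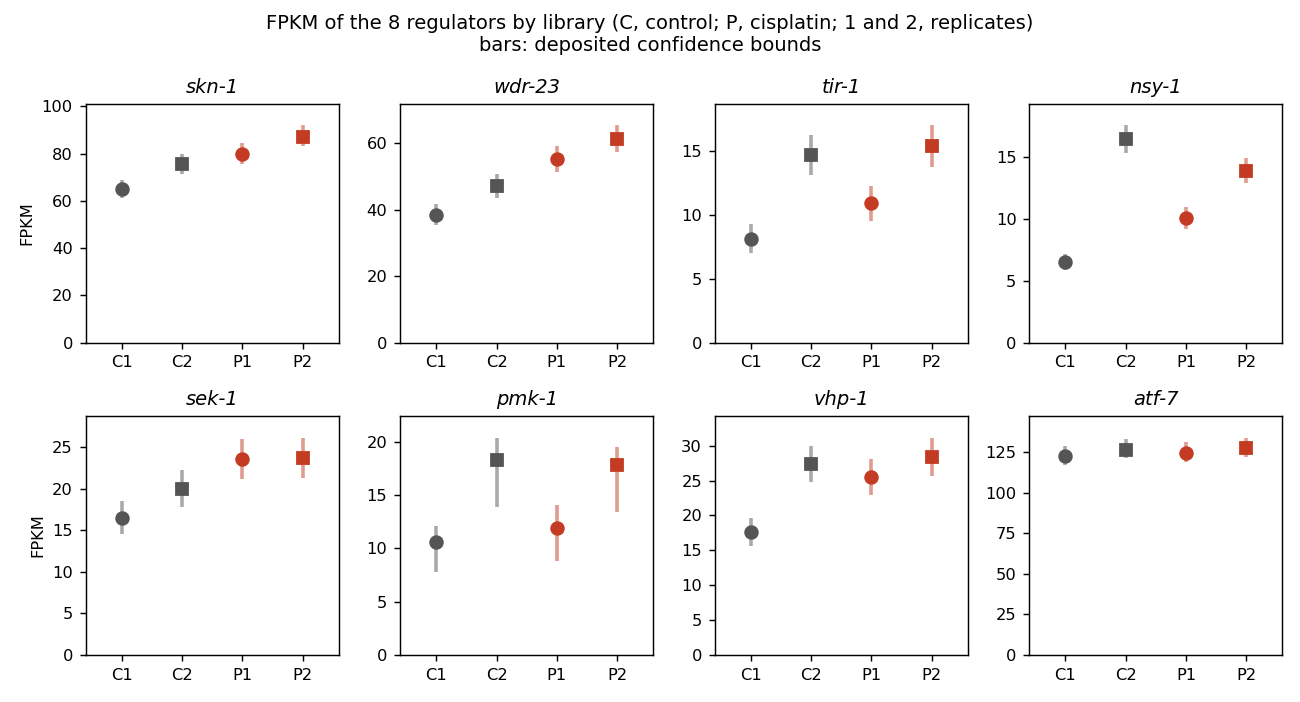
FPKM (vertical axes, from 0, with their own scale for each gene) of the 8 regulators in the 4 libraries (horizontal axes). Grey symbols are controls (C1 and C2) and red symbols cisplatin (P1 and P2), circles stand for replicate 1 and squares for replicate 2, and bars are the deposited confidence bounds. Control replicate 1 is the lowest library in each panel, and the values of *atf-7* stay between 123 and 127 FPKM.

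*skn-1* had somewhat more transcript with cisplatin than without, by less than the test could separate from the spread between replicates. It had 79.9 and 87.1 FPKM in cisplatin replicates 1 and 2 and 64.8 and 75.5 FPKM in the controls. Both treated libraries thus lay above both controls, as they did for 15.1% of all genes tested. The difference between replicates was nearly as large as that between groups, at 0.12 (log2) between the treated libraries and 0.22 between the controls, against 0.30 and 0.21 within the libraries numbered 1 and 2. The log2 fold change of log2(FPKM + 0.5) was 0.25 (standard error 0.194), a 1.19-fold difference with a 95% interval from 0.86 to 1.65. With libraries scaled to 1 common median FPKM, which moved the median of all genes from 0.13 to -0.06, it was 0.04 for *skn-1*, 0.24 for *wdr-23* and 0.16 for *sek-1*. Leaving out control replicate 1 gave 0.14 for *skn-1*, and leaving out control replicate 2 gave 0.36.

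*wdr-23*, the repressor of SKN-1, had the largest difference of the 8 genes, and it was also higher with cisplatin. Its values were 55.3 and 61.3 FPKM after cisplatin against 38.5 and 47.1 FPKM in untreated worms. Both treated libraries lay above both controls, as they did for 15.1% of all genes tested. The log2 fold change was 0.45 (standard error 0.219), or 1.36-fold with a 95% interval from 0.946 to 1.97. Relative to the median of all genes, which was itself 0.13, the difference was 0.32. The unadjusted p in limma was 0.084 and the adjusted p 1.00. With the replicate number as a block the unadjusted p was 0.00937, with a 95% interval of the log2 fold change from 0.12 to 0.78, and the adjusted p was 0.208 in limma. That fit has 1 residual degree of freedom per gene.

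The level of *skn-1* per unit of *wdr-23* was lower in both cisplatin libraries than in both controls. This ratio, chosen from the roles of both genes and after their values were known, was 1.45 and 1.42 in the cisplatin libraries and 1.68 and 1.6 in the controls. A ratio within a library does not change when all its values are multiplied by 1 factor, but it can change with quantile normalization. The groups did not overlap, and with 2 libraries a group no test was made of the ratio. The deposited bounds of both genes were not carried into it. All other ratios formed between members overlapped between the groups. These were *sek-1* to *pmk-1*, *nsy-1* to *sek-1*, *tir-1* to *nsy-1*, *pmk-1* to *vhp-1* and *atf-7* to *pmk-1*. The share of all gene pairs without overlap was not computed.

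At the top of the p38 cascade, *tir-1* and *nsy-1* varied more between the control replicates than between groups in the deposited FPKM. *tir-1*, which encodes the TIR domain adaptor, had 10.9 and 15.4 FPKM after cisplatin against 8.13 and 14.7 FPKM in untreated worms. *nsy-1*, which encodes the MAP kinase kinase kinase, had 10.1 and 13.9 FPKM after cisplatin against 6.54 and 16.5 FPKM in untreated worms. In both genes replicate 1 was low and replicate 2 high in both groups, and the groups overlapped. *nsy-1* was higher with cisplatin by 0.59 on the log2 scale among the libraries numbered 1 and lower by 0.23 among those numbered 2. Its log2 fold change of 0.18 (standard error 0.547) turned negative when control replicate 1 (-0.46) or cisplatin replicate 2 (-0.05) was left out, and with quantile (-0.06) or median scaling (-0.02), and was 0.40 and 0.81 when cisplatin replicate 1 or control replicate 2 was left out. The value for *tir-1*, 0.23 (standard error 0.464), became -0.17 when control replicate 1 was left out and -0.0045 when cisplatin replicate 2 was, and 0.47 and 0.64 when cisplatin replicate 1 or control replicate 2 was. With quantile and median scaling the *tir-1* value was 0.05 and 0.03.

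*sek-1*, the MAP kinase kinase gene, was higher in both cisplatin libraries and the only kinase gene of the members whose groups did not overlap. Of all genes tested 15.1% were higher without overlap, and with quantile or median scaling the *sek-1* groups overlapped. It had 23.5 and 23.7 FPKM after cisplatin against 16.5 and 19.97 FPKM in untreated worms. The treated libraries differed from each other by 0.01 on the log2 scale and the controls by 0.27. The log2 fold change was 0.37 (standard error 0.291), or 1.29-fold with a 95% interval from 0.793 to 2.11, and it was 0.24 without control replicate 1.

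*pmk-1*, the p38 kinase gene, did not differ detectably between the groups. It had 11.9 and 17.8 FPKM after cisplatin against 10.6 and 18.3 FPKM in untreated worms, and in each group replicate 2 was well above replicate 1. The log2 fold change of 0.06 (standard error 0.434) had a 95% interval from -0.99 to 1.11, wide enough that a change of up to 2.16-fold higher or to 0.504 of the control level was not separated from none. It became negative when control replicate 1 (-0.32) or cisplatin replicate 2 (-0.22) was left out, and with quantile (-0.13) or median scaling (-0.14). It was 0.34 when cisplatin replicate 1 was left out and 0.44 when control replicate 2 was. Counting error was also largest for this gene, with deposited bounds of 18.6% to 23% of the value on either side, against 4.58% to 14.1% for the other members.

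*pmk-1* lies on chromosome IV at the end of a row of 3 p38 genes on the same strand, *pmk-3*, *pmk-2* and *pmk-1*, with 345 and 145 bases between neighbours in WBcel235. These genes are known to be transcribed together as an operon. *pmk-3* had 9.50 and 12.2 FPKM after cisplatin against 7.64 and 13.3 FPKM in untreated worms, and *pmk-2* had 4.65 and 8.23 against 2.19 and 7.33 FPKM. The ratio of *pmk-1* to *pmk-3* stayed between 1.26 and 1.46 over the 4 libraries, whereas that of *pmk-1* to *pmk-2* ranged from 2.16 to 4.85 and was largest in control replicate 1, where *pmk-2* was at its lowest. The bounds for *pmk-2* in that library correspond to about 34 fragments.

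*atf-7*, which encodes the transcription factor downstream of PMK-1, was the steadiest of the 8 genes in the deposited FPKM. It had 125 and 127 FPKM after cisplatin against 123 and 127 FPKM in untreated worms, a span of 1.04-fold between the lowest and the highest library. Every difference between its libraries was smaller than their deposited bounds, which were 4.58% to 4.93% of the value on either side. The log2 fold change was 0.02 (standard error 0.172), with an interval from 0.757-fold to 1.35-fold, and its sign turned with quantile (-0.03) and median scaling (-0.19). With median scaling its standard error was 0.579, the largest of the 8 genes in that setting, so its steadiness depended on the scaling.

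*vhp-1*, the MAP kinase phosphatase gene, had 25.5 and 28.4 FPKM after cisplatin against 17.7 and 27.4 FPKM in untreated worms. Control replicate 1 was low and the other 3 libraries were close together, so the groups overlapped. Its log2 fold change of 0.29 (standard error 0.316) was 0.60 without control replicate 2 and -0.02 without control replicate 1. The ratio of *pmk-1* to *vhp-1* was 0.468 and 0.626 with cisplatin and 0.601 and 0.668 without, and overlapped between the groups.

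**Figure D2:**
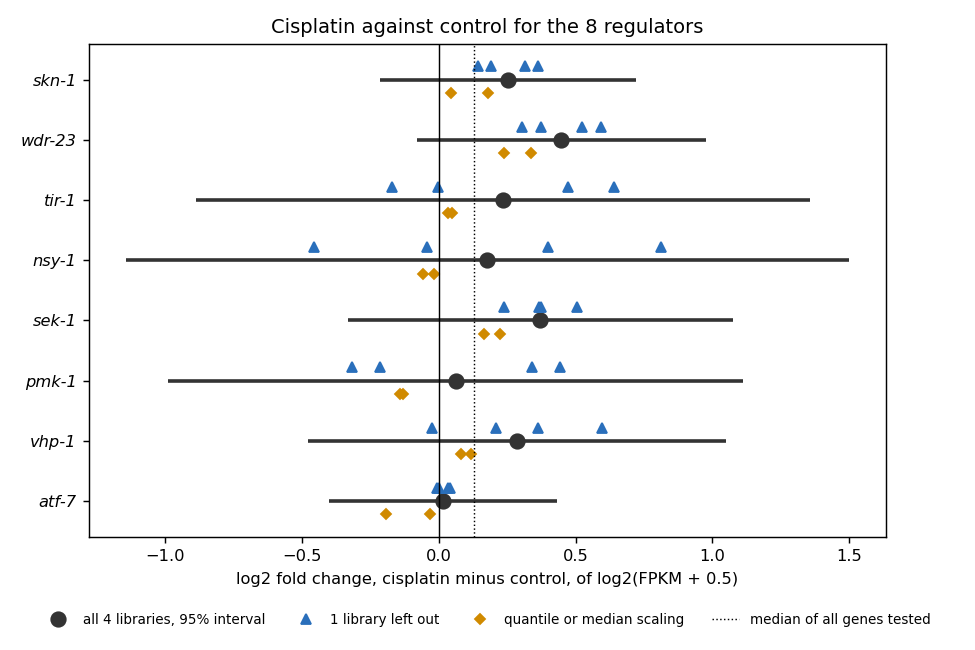
Log2 fold change of cisplatin against control (horizontal axis, on log2(FPKM + 0.5)) for each regulator. Black points and lines are the limma estimates over all 4 libraries with 95% intervals, blue triangles the estimates with 1 library left out, orange diamonds those with quantile or median scaling, and the dotted line the median of all genes tested, at 0.13. All 8 intervals, from the fit without a replicate block, hold 0.

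None of the 8 genes reached the adjusted threshold of 0.05 in limma, nor did any other of the 15065 genes tested (0%). At an unadjusted p up to 0.05 limma also placed none of the 8, against 1.56% of all genes (1.12% higher and 0.445% lower), and the 8 adjusted p-values were all 1.00. With the replicate number as a block limma called 369 genes, none of them a member, and 1484 genes had an unadjusted p up to 0.05, with *wdr-23* as the only member among them. Without the block the 95% interval held 0 for all 8 genes and lay within a 2-fold difference in either direction for *skn-1*, *wdr-23* and *atf-7*. For the other 5 genes a difference of 2-fold or more was not separated from none at this depth and number of replicates. For those 3 the 2-fold limit depended on the fit. Without the intensity trend the log2 interval reached 1.06 for *skn-1* and 1.28 for *wdr-23*. With median scaling it reached 1.21 for *skn-1*, 1.32 for *wdr-23* and -1.49 for *atf-7*. In those settings a 2-fold difference was not separated from none for the genes named. The median log2 fold change of the 8 genes was 0.24, which is 0.12 above the median of all genes tested, and it was -0.02 without control replicate 1 and 0.55 without control replicate 2.

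By direction alone, 6 of 8 members were higher in the cisplatin library of both pairs with the same number, against 38.4% of all genes tested, and none was lower in both, against 15.7%. The groups did not overlap for *skn-1*, *wdr-23* and *sek-1*, which were higher with cisplatin, as were 15.1% of all genes tested, and no member had both treated libraries below both controls, against 4.21%. With libraries scaled to 1 common median none of the 8 was free of overlap, against 7.79% of genes higher and 9.24% lower, and 3 were higher in both pairs (*wdr-23*, *sek-1* and *vhp-1*), against 19.5%. With quantile normalization the members free of overlap were *wdr-23* and *vhp-1*, both higher, as were 1927 of the 15065 genes, with 1881 lower. In that setting 4 members were higher in both pairs, against 27.5% of genes, and *pmk-1* and *atf-7* were lower in both, against 26.6%. The deposited table also holds 1 FPKM value per condition, set over both replicates and without an error. In that column pair 5 members are higher with cisplatin and 3 lower, namely *pmk-1*, *nsy-1* and *atf-7*.

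In the deposited FPKM control replicate 1 was the lowest of the 4 libraries for all 8 members, as it was for 59.5% of all genes tested. All 8 were also higher there in replicate 2 than in replicate 1 in both groups, as were 64.6% of all genes. With quantile normalization control replicate 1 was the lowest for 4 members, and with libraries scaled to 1 common median for 1. The share of all genes in those settings was not computed. The excess of replicate 2 ranged from 0.01 for *sek-1* to 0.56 for *pmk-1* with cisplatin, and from 0.05 for *atf-7* to 1.27 for *nsy-1* in the controls. Its median over the 8 genes was 0.15 with cisplatin and 0.45 in the controls, against 0.28 and 0.64 over all genes. Over the marker lists the same difference was 0.61 and 1.36 for 11 neuronal genes, 1.52 and 1.77 for 16 moulting genes and -0.34 and -0.47 for 10 oocyte genes. The part of these stage and tissue differences in the values of *tir-1*, *nsy-1*, *pmk-1* and *vhp-1* was not tested.

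**Figure D3:**
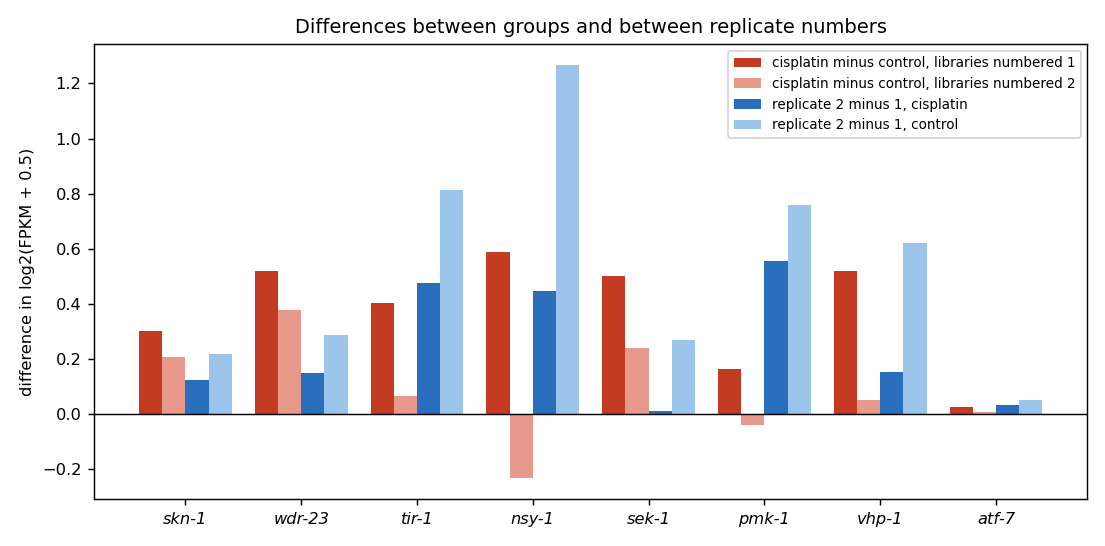
Differences in log2(FPKM + 0.5) for each regulator (vertical axis, bars from 0). Red bars are cisplatin minus control within the libraries numbered 1 (dark) and 2 (light), and blue bars replicate 2 minus replicate 1 within cisplatin (dark) and control (light). The longest bar is that of *nsy-1* between the controls, at 1.27, and *wdr-23* has the longest light red bar, at 0.38.

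Genes whose values followed the same course over the 4 libraries were numerous, and with so few libraries the likeness is a description only. The 3 genes most like *skn-1*, by the root mean square difference of log2(FPKM + 0.5) after centring each gene, were *B0025.4* (0.00896), *pnc-1* (0.011) and *uaf-2* (0.0126). The 3 most like *pmk-1* were *mrps-22* (0.0121), *git-1* (0.0143) and *pes-22* (0.0156). Of 9711 genes averaging 5 FPKM or more, 110 lay within 0.05 of *skn-1* and 54 within 0.05 of *pmk-1*. Among the members the closest were *wdr-23* and *sek-1* (0.0636), *skn-1* and *sek-1* (0.0737) and *pmk-1* and *tir-1* (0.0928).

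The other genes of these pathways were described by lists of the same pathways. These lists were chosen with earlier results of these data known, and their counts are a description. In the list of 14 other stress MAPK genes, both pairs of libraries were higher for 7 and lower for 2, against 38.4% and 15.7% of all genes, and none had an unadjusted p up to 0.05 in limma. Their median log2 fold change was 0.21, and moved to -0.26 without control replicate 1, to -0.02 without cisplatin replicate 2, and to 0.41 and 0.55 when cisplatin replicate 1 or control replicate 2 was left out. *mek-1*, a MAP kinase kinase gene of the KGB-1 module, had 93.7 and 70.8 FPKM after cisplatin against 59.7 and 62.0 FPKM in untreated worms, with no overlap. It was picked after its values were seen, as the 1 gene of the 14 without overlap. That is 7.14% of the list higher and 0% lower, against 15.1% and 4.21% of all genes. At the ends of the list stood *pmk-2* and *mtk-1* on the higher side, and on the lower side *jnk-1*, the JNK gene, with 1.73 and 5.26 against 1.94 and 6.23 FPKM, and *mpk-1*, the ERK gene, with 78.4 and 70.3 against 97.1 and 66.5 FPKM.

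Among 19 other regulators of SKN-1, *rict-1* had the largest fold change. It encodes Rictor, a subunit of the TORC2 kinase complex, and had 31.02 and 31.5 FPKM after cisplatin against 13.2 and 17.4 FPKM in untreated worms. The log2 fold change was 1.02 (standard error 0.295), with an unadjusted p of 0.0125 and an adjusted p of 1.00 in limma. The next was *ogt-1*, the O-GlcNAc transferase gene, with 54.5 and 64.1 against 28.5 and 66.3 FPKM. At the other end *hcf-1* had 78.3 and 74.8 against 79.4 and 68.6 FPKM and *pdhk-2* 60.8 and 65.1 against 60.2 and 66.9 FPKM. *cul-4*, which encodes the scaffold of the ligase that WDR-23 serves, had 24.8 and 29.4 FPKM after cisplatin against 20.9 and 29.4 FPKM in untreated worms. In all, 9 of the 19 were higher and none lower in both pairs, against 38.4% and 15.7% of all genes, and 1 was higher at an unadjusted p up to 0.05. The list's median was 0.20, and moved to -0.08 without control replicate 1, to 0.09 without cisplatin replicate 2, and to 0.33 and 0.52 when cisplatin replicate 1 or control replicate 2 was left out. *ddb-1*, the partner of *cul-4*, and *sel-11* had a failed estimate in at least 1 library and were not tested, and *sknr-1* has no row in the table used here.

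Of 24 other regulators of p38 immune signalling, 9 (37.5%) were higher and 2 (8.33%) lower in both pairs, a share near the 38.4% higher of all genes and below the 15.7% lower, and 1 was higher at an unadjusted p up to 0.05. That gene was *zip-2*, a bZIP factor known to act in parallel to PMK-1, with 211 and 230.4 FPKM after cisplatin against 137 and 173 FPKM in untreated worms (log2 fold change 0.52, standard error 0.198). *gpa-12* and *fshr-1* had larger fold changes, 0.57 and 0.56, but with *fshr-1* at 11.4 and 15.4 against 4.39 and 17.3 FPKM both rested on the low control replicate 1. *cebp-1*, a bZIP gene restrained by *nipi-3*, had 37.8 and 39.6 against 29.2 and 28.97 FPKM, with no overlap, and was picked after its values were seen. In the list 4 genes (16.7%) were higher without overlap, *zip-2*, *dkf-2*, *cebp-1* and *rab-1*, a share near the 15.1% of all genes. The share lower without overlap was 0%, against 4.21% of all genes. On the lower side *nol-6* had 8.28 and 10.4 against 9.9996 and 11.96 FPKM and *sta-2* 5.93 and 14.2 against 5.94 and 16.4 FPKM. The median of the list was 0.27, and moved to -0.22 without control replicate 1, to 0.10 without cisplatin replicate 2, and to 0.43 and 0.70 when cisplatin replicate 1 or control replicate 2 was left out.

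Most enzyme genes downstream of SKN-1 were higher in both cisplatin libraries. Of 21 enzyme genes known as SKN-1 targets, 20 were higher and none lower in both pairs, against 38.4% and 15.7% of all genes, and 18 were higher without overlap, against 15.1%. The list was chosen with earlier results of these data known. It holds *gst-4*, which the study reports as strongly induced in the same data. Its counts are therefore a description and not separate support. In limma 11 were higher at an unadjusted p up to 0.05, against 1.12% of all genes, and none passed the adjusted threshold. The median log2 fold change was 1.125, which is 1.00 above that of all genes, and was 0.72 without control replicate 1. *nit-1*, a nitrilase gene, had 41.8 and 24.7 FPKM after cisplatin against 10.04 and 9.68 FPKM in untreated worms. *gst-12* had 10.005 and 11.9 against 1.91 and 2.50 FPKM, and *gst-10* 207 and 280.1 against 72.5 and 147 FPKM. *gst-7* had 477 and 428 against 183 and 207 FPKM and *gst-13* 201 and 166 against 89.7 and 77.7 FPKM. *gsr-1*, the glutathione reductase gene, had 192 and 166 against 118 and 119 FPKM, and *ugt-13* 18.3 and 21.2 against 6.69 and 12.6 FPKM. The remaining 4 of the 11 were *gst-38*, *gst-30*, *gst-4* and *gst-5*. At the lower end *trx-2* had 78.0 and 70.2 against 65.8 and 58.5 FPKM and *gss-1*, the glutathione synthetase gene, 52.3 and 56.2 against 42.9 and 46.4 FPKM. *gcs-1*, a classic target, was marked as failed in the cisplatin libraries and was not tested. Several *gst* genes are close paralogs, and their values come without the reads that mapped to several sites, which were removed.

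Targets of PMK-1 and ATF-7 lay on both sides. Both pairs were higher for 10 of 16 such immune genes (62.5%) and lower for 2 (12.5%), against 38.4% and 15.7% of all genes. This list was also chosen with earlier results of these data known. At an unadjusted p up to 0.05 in limma 4 were higher and none lower, against 1.12% and 0.445% of all genes, and none passed the adjusted threshold. The 4 were *F35E12.5* and *dod-24*, genes with a CUB-like domain, *F49F1.6*, with 8.85 and 13.1 against 2.53 and 3.85 FPKM, and *catp-3*, with 45.9 and 40.5 against 10.3 and 29.5 FPKM. *T24B8.5*, widely used as a reporter of PMK-1 activity, lay at the other end, with 19.1 and 80.4 FPKM after cisplatin against 54.9 and 115 FPKM in untreated worms (log2 fold change -1.01, standard error 0.677). *C17H12.8*, also known to depend on PMK-1, had 75.008 and 50.2 against 143 and 63.0 FPKM. The median of the list was 0.36. It was 0.15 with libraries scaled to 1 common median, and between 0.56 and 0.71 with any 1 of the 4 libraries left out.

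**Figure D4:**
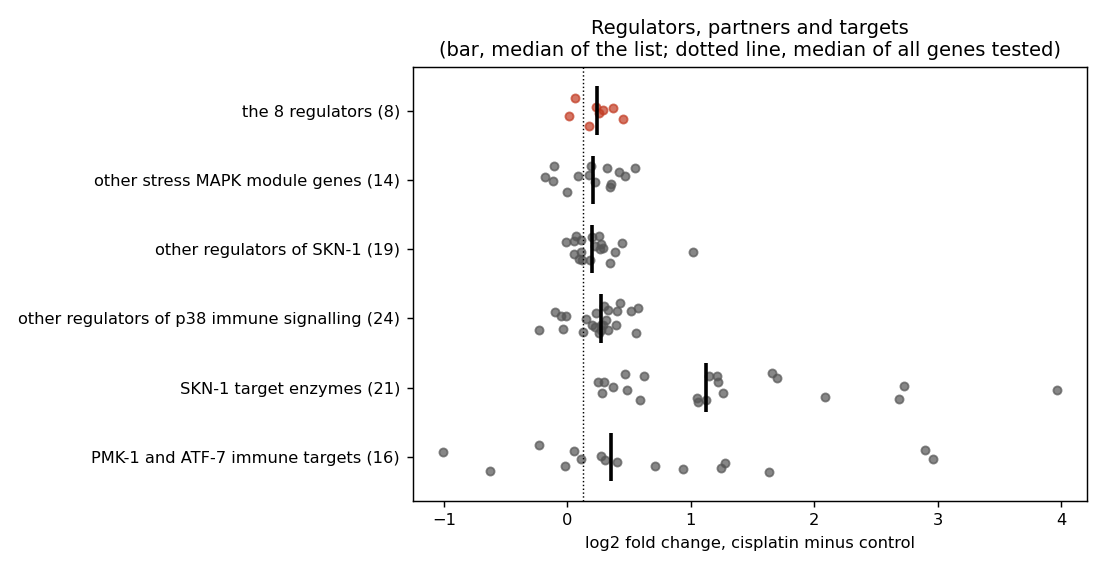
Log2 fold change of cisplatin against control (horizontal axis) of each tested gene of 6 lists (rows, number of genes in parentheses). Points are genes, black bars the median of the list and the dotted line the median of all genes tested, at 0.13. The 8 regulators lie between 0.02 and 0.45, and the SKN-1 target enzymes reach 3.96.

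In the WBcel235 annotation *skn-1* lies on chromosome IV from 5651039 to 5660384 on the minus strand, *pmk-1* on chromosome IV from 8148794 to 8151266 and *sek-1* on chromosome X from 7816734 to 7821036. *nsy-1* lies on chromosome II from 5022757 to 5029999 and *vhp-1* on the same chromosome from 5323276 to 5340829. *wdr-23* lies on chromosome I from 7595776 to 7602221, and *tir-1* and *atf-7* on chromosome III, from 3869590 to 3901642 and from 4491627 to 4499045. All are protein-coding, with between 1 annotated transcript (*pmk-1* and *sek-1*) and 13 (*tir-1*).

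The span that the deposited table gives for a gene often covered only part of it. That of *tir-1* is 44 bases long, against an annotated gene of 32053 bases, and that of *skn-1* holds 23.4% of its annotated exon bases, those at the 5′ end of its longest transcript. For *atf-7* the share was 15.4%. For these genes the FPKM do not seem limited to the spans. The width of their bounds corresponds to exon lengths of about 3448 bases for *tir-1*, 2530 for *skn-1* and 2119 for *atf-7*. For *pmk-1* the estimate was 1018 bases, nearer to the 1146 exon bases within its span than to all 1671. That for *wdr-23* was 2257 bases, against 2237 within the span and 2983 in all. Which exons the FPKM rest on was not settled. For *nsy-1* the same estimate gave 8032 bases against 5061 annotated exon bases, so it is rough. Each row gives 1 value for all transcripts of a gene, and the SKN-1 isoforms cannot be told apart. Coding genes on the opposite strand share 41 exon bases with *skn-1*, 132 with *sek-1* and 56 with *nsy-1*, and no source used here says if strand was used in assigning reads. On the same strand the coding genes *C07G2.5* and *F59A6.13* share 72 exon bases with *atf-7* and 33 with *nsy-1*.

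**Figure D5:**
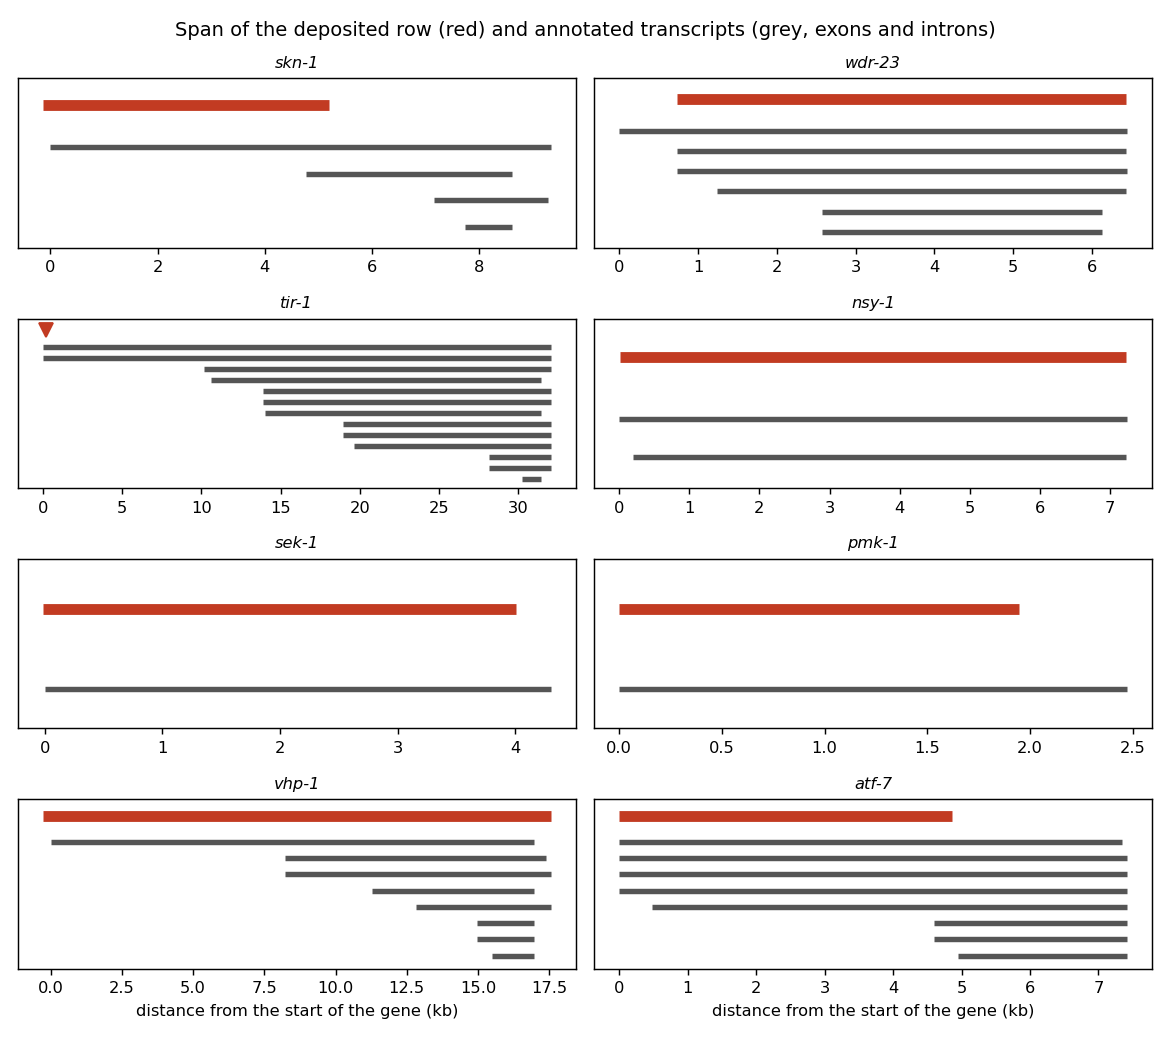
Span of the deposited row (red) and the annotated transcripts (grey, exons and introns together) of each regulator, by distance from the start of the gene in kilobases (horizontal axes), with transcription from left to right. A triangle marks the 44 bases of *tir-1*. The red span reaches the end of the gene for *nsy-1* and *vhp-1* and stops well before it for *skn-1* and *atf-7*.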

How the data were processed

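Per the authors, paired-end reads of poly-A RNA were aligned to WBcel235 with TopHat, those mapping to several sites were removed, and Cufflinks and Cuffdiff gave the values (versions are not given in the sources used here). The deposited FPKM are not counts, and each library has its own value with bounds. Columns of the authors' own comparison (fold changes, p-values) were not used. Library columns were matched to samples by name. The dose is that of the treatment label, since the protocol field gives 0 µg/ml for every sample.

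Left out were 88 genes marked as failed in any library and those averaging under 0.5 FPKM. For the remaining 15065, log2(FPKM + 0.5) was fitted in limma (3.58.1, R 4.3.3) with a trend on intensity, Benjamini-Hochberg adjustment and no replicate block. With 2 libraries a group an exact two-sided permutation test cannot go below 0.33, and none was made. The fit was tested on simulated data. Alternatives were other pseudocounts, filters and scalings, a replicate block, no trend, failed estimates kept at 0 and each library left out. Members and lists were chosen with earlier results of these data known. Named genes were the members, the 2 genes at each end of a list, those at an unadjusted p up to 0.05, and the 3 most like *skn-1* and *pmk-1*. *mek-1*, *cul-4*, *cebp-1* and the ratios were added after their values were seen. Positions are from Ensembl release 115.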

Additional observations from a re-analysis of the deposited data

How the results depend on the processing

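In 13 alternatives none of the 8 regulators reached the adjusted threshold, and *skn-1*, *wdr-23* and *sek-1* kept the sign of their log2 fold change. Quantile normalization turned the sign for *pmk-1* (-0.13), *nsy-1* (-0.0567) and *atf-7* (-0.0345), and scaling libraries to 1 median did so too (-0.14, -0.0192 and -0.19). Under that scaling 3 regulators were higher in both pairs, 0 had groups without overlap (a count added after seeing the data), and the immune target median was 0.15. Leaving out 1 library, with the lone sample taken to vary like the other group, gave ranges of 0.14 to 0.36 for *skn-1*, 0.30 to 0.59 for *wdr-23*, 0.24 to 0.50 for *sek-1*, -0.32 to 0.44 for *pmk-1*, -0.46 to 0.81 for *nsy-1*, -0.17 to 0.64 for *tir-1*, -0.008 to 0.0405 for *atf-7* and -0.0243 to 0.60 for *vhp-1*. Without cisplatin replicate 2 the values were -0.22 for *pmk-1*, -0.0453 for *nsy-1* and -0.0045 for *tir-1*. The median of the 8 ranged from -0.0162 to 0.55, and list medians from -0.26 to 0.55 for MAPK modules, -0.0826 to 0.52 for SKN-1 regulators, -0.22 to 0.70 for p38 regulators, 0.72 to 1.30 for SKN-1 targets and 0.56 to 0.71 for immune targets. Genes called ranged from 0 to 21, and 170 to 837 had an unadjusted p up to 0.05, of which 0 to 1 were members. A pseudocount of 1 gave 1 called gene, and quantile normalization 480 genes at that unadjusted p. The replicate block gave 369 called genes and 1484 at the unadjusted p, of which 1 was a member, *wdr-23* (limma, unadjusted p = 0.00937, adjusted p = 0.208). The study speaks of its replicates as separate experiments, but no source used here says that treated and control libraries with 1 number were grown or prepared together, so the pairing was not settled. Deviations from the group means of the libraries numbered 1 correlated at 0.594 across genes, and the block fit has 1 residual degree of freedom. The cause of these shifts was not tested. The bounds imply 73 to 111 fragments for *pmk-1*, which limits its precision.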
